A study of Mus musculus with 6 samples.

Results

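The myosin heavy chains are described here across the 6 arrays of a lncRNA knockdown experiment in mouse muscle cells. The members are the probes whose accession on the array names Myh1, Myh2, Myh3, Myh4, Myh6, Myh7, Myh7b, Myh8, Myh9 or Myh10: 13 probes of 10 genes, of 20659 genes named on the array and 39429 probes in all. The cells were C2C12, an established line of mouse myoblasts that form multinucleated myotubes on differentiation. They were transfected with the siRNA si-lncMGPF, which targets the lncRNA lncMGPF, or with the one labelled si-NC, and their total RNA was labelled with Cy3. After 2 days of differentiation each group gave 3 samples, each on an array of its own, and the comparison asks how the knockdown altered gene expression in differentiating cells. The labels do not say whether the 3 samples of a group came from separate cultures, and the p-values cover no more than the spread between the samples, which could be a technical one. The level of lncMGPF was not analysed here, so the knockdown was not checked.

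Myosin heavy chains are the motor proteins of muscle thick filaments and of the contractile bundles of nonmuscle cells. Skeletal muscle makes several isoforms in a developmental order, with the embryonic (Myh3) and perinatal (Myh8) chains before the adult fast chains. Those are the chains of type IIa (Myh2), IIx (Myh1) and IIb (Myh4) fibres, and Myh7 is the slow chain. Myh6 is the alpha chain of the heart, Myh7b a slow chain of specialised muscles, and Myh9 and Myh10 the nonmuscle IIA and IIB chains found in most cells.

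The headers of the array files placed the 6 arrays in 2 scans. The 3 si-NC arrays and si-lncMGPF 1 belonged to scan 1, and si-lncMGPF 2 and 3 to scan 2. Of all probes, 64.13% to 65.28% were well above background on the scan 1 arrays and 57.3% and 56.93% on the scan 2 arrays, and the 75th percentile of the processed signal was 688.2 to 930.7 on scan 1 and 580.2 and 492.1 on scan 2. No si-NC array lay on scan 2, so the values of si-lncMGPF 1 against the si-NC arrays are given throughout as the change within scan 1. The signals were divided by each array's 75th percentile, and the median log2 change over the 24661 tested probes was 0.01, with 0.13 as the median standard error (SE). A negative log2 change is lower in si-lncMGPF.

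The fetal and adult fast skeletal chains are neighbours on chromosome 11, in the order Myh3, Myh2, Myh1, Myh4, Myh8 and Myh13, and Myh6 and Myh7 are neighbours on chromosome 14. The 250 bases upstream of the annotated start were read from RefSeq (GRCm38.p6) for all 10 members. Those of Myh2 (chr11:67170777-67171026), Myh1 (chr11:67199852-67200101), Myh4 (chr11:67237562-67237811) and Myh8 (chr11:67276874-67277123), all on the plus strand, are shown because they share sequence that the Myh3 window lacks. Capitals mark runs of at least 10 bases found, in the orientation shown, in 3 or more of the 10 windows.
Myh2: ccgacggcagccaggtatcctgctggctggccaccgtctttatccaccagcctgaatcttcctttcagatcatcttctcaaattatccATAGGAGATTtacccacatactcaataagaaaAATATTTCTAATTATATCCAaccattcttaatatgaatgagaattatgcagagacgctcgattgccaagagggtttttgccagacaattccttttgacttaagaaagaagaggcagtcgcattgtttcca
Myh1: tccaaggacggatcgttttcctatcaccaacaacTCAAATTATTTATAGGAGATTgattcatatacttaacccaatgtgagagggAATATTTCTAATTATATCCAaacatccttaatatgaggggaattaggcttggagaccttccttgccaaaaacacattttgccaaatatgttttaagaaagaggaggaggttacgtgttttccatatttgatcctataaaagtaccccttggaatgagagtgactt
Myh4: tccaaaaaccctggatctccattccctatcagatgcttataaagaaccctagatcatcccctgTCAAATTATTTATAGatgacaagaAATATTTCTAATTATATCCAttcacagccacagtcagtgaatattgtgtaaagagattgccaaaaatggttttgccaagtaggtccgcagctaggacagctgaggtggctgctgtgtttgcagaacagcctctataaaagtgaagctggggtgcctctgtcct
Myh8: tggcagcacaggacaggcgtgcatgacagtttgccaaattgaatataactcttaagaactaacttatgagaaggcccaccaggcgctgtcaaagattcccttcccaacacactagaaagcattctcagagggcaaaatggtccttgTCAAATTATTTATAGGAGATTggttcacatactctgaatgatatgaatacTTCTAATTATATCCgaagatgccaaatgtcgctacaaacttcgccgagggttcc
The 14-base run TTCTAATTATATCC stood in the windows of Myh1, Myh2, Myh4 and Myh8, which were 4 of the 32851 RefSeq promoter windows of this length, or 0.0122%, with both strands searched. The 15-base run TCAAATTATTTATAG stood in those of Myh1, Myh4 and Myh8, 3 of 32851 windows or 0.00913%. Counted from the annotated start, the stretch with the first run ended at position -144 in Myh4 and at -41 in Myh8, so the shared sequence sat closer to the annotated start of the perinatal gene.

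The windows of the embryonic gene Myh3 (chr11:67078050-67078299, plus strand) and of the slow gene Myh7 (chr14:54994627-54994876, minus strand) are shown for contrast, with the E-box CANNTG in capitals. The MyoD family of muscle regulators binds sites of this pattern, but not every E-box is such a site.
Myh3: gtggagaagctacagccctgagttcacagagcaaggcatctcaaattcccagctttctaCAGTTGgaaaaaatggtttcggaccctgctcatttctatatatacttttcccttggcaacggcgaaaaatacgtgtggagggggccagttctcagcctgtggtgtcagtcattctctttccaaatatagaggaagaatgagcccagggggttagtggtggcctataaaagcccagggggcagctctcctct
Myh7: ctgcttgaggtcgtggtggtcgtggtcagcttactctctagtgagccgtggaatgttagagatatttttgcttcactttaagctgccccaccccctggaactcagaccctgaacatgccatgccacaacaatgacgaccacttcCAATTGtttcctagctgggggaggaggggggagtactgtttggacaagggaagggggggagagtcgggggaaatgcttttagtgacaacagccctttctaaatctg
An E-box was found in 8 of the 10 windows, all except those of Myh1 and Myh2. The same letters were in 66.2% of all 32851 windows, so most promoters hold them. A match is a run of letters only, and no binding was measured.

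**Figure D1:**
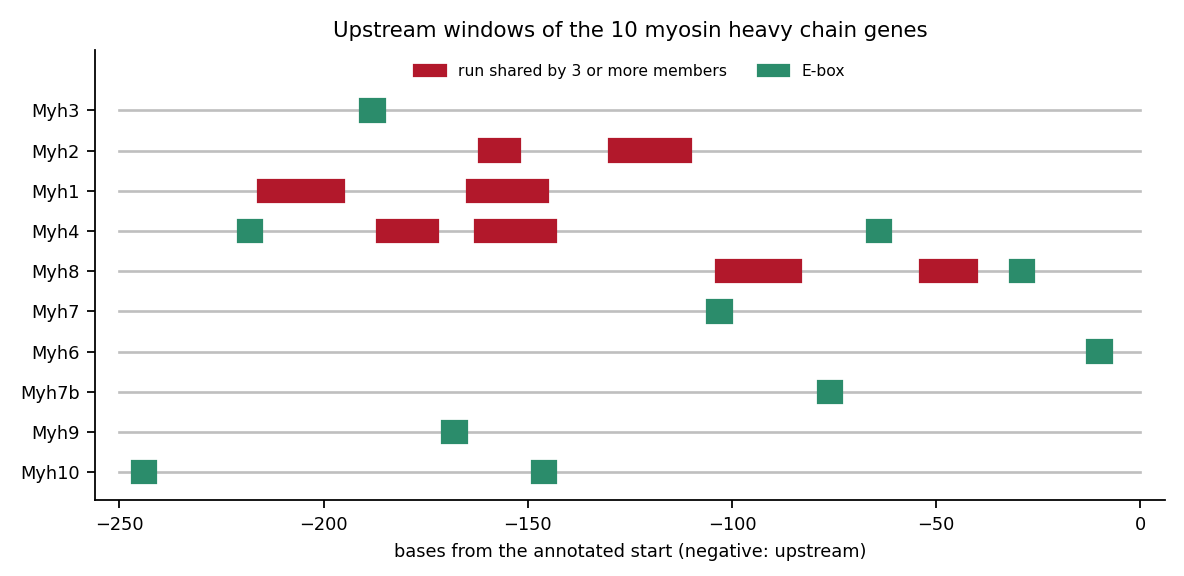
The 250 bases upstream of each member's annotated start, in bases from that start, with runs of at least 10 bases shared by 3 or more members in red and E-boxes in green. The shared runs lie in Myh2, Myh1, Myh4 and Myh8, with those of Myh8 nearest to the start, and Myh3 has none.

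Of the 13 member probes, 9 were well above background on all 6 arrays and covered Myh1, Myh3, Myh4, Myh6, Myh7, Myh8, Myh9 and Myh10. Another 3, of Myh2, Myh7b and Myh6, were tested only because they were well above background on the 3 si-NC arrays. The second Myh8 probe was well above background on si-lncMGPF 1 alone and was not tested. No spot of these probes was saturated.

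Probes can differ in how strongly they bind their target, and member probes of 1 accession differed in signal. The cause of these differences was not tested. The pair of Myh3 probes share an accession, and A_55_P2066440 gave 2.54 to 3.26 times the signal of A_55_P2083406 on the 6 arrays. For the pair of Myh8 probes, again of 1 accession, A_51_P143296 gave 10.8 times the signal of A_55_P2120161 on si-lncMGPF 1, where alone both were well above background. The signals below are therefore given by isoform and array, and they are not ranked as transcript amounts. Without probe sequences, binding of a member's probe to the RNA of another heavy chain could not be examined.

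Myh3, the embryonic chain, was detected by both of its probes on every array. Probe A_55_P2066440 gave normalised signals, as multiples of the array's 75th percentile, of 33.1, 36.3 and 34.2 in si-NC and 32.3, 28 and 33 in si-lncMGPF. All 3 si-lncMGPF values lay below the si-NC values, by little: si-lncMGPF 3 was within 0.1 of si-NC 1. The log2 change was -0.15 (SE 0.10, 95% interval -0.39 to 0.09, limma adjusted p = 0.472), and it was -0.09 within scan 1. Probe A_55_P2083406 gave 12.3, 12.6 and 12.5 in si-NC and 12.7, 8.59 and 10.6 in si-lncMGPF. Here the scan 1 array of si-lncMGPF was the highest of the 6 and both scan 2 arrays were the lowest. The log2 change of -0.25 (SE 0.15, interval -0.61 to 0.11, limma adjusted p = 0.434) was 0.03 within scan 1.

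Myh8, the perinatal chain, had normalised signals of 0.328, 0.353 and 0.361 in si-NC and 0.292, 0.16 and 0.213 in si-lncMGPF from A_51_P143296. The groups did not overlap, and the lowest values were those of the 2 scan 2 arrays. The log2 change was -0.69 (SE 0.21, interval -1.19 to -0.18), 1.61-fold lower, with a limma p of 0.0147 and an adjusted p of 0.238. It was -0.25 within scan 1 against -0.91 on scan 2, so most of its size came from the arrays with no si-NC array beside them. The other Myh8 probe, A_55_P2120161, gave 0.0116 to 0.0171 in si-NC, where it was not well above background, and 0.0159 to 0.0271 in si-lncMGPF. No fold is given for it.

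Myh7, the slow chain shared by skeletal muscle and heart, gave 0.532, 0.654 and 0.597 in si-NC and 0.387, 0.37 and 0.386 in si-lncMGPF. The 3 si-lncMGPF arrays were close to each other on both scans and all lay below the lowest si-NC array. The means were 0.594 ± 0.0606 and 0.381 ± 0.00939 (SD, n = 3 each), 1.55-fold lower in si-lncMGPF. The log2 change was -0.64 (SE 0.10, interval -0.88 to -0.39), with a limma p of 0.000553, the smallest of the members, and an adjusted p of 0.126, which did not pass 0.05. It was as large within scan 1, at -0.61, as on scan 2, at -0.65.

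Of the other slow and cardiac chains, Myh7b gave 0.032, 0.0367 and 0.0396 in si-NC and 0.0323, 0.0104 and 0.0243 in si-lncMGPF. It was well above background on si-lncMGPF 1 only of that group, where its value lay inside the si-NC range, and its log2 change was -0.84 (SE 0.39, limma adjusted p = 0.35) and -0.16 within scan 1. The Myh6 probe A_55_P2173952 gave 0.0324 to 0.0449 in si-NC and 0.034 to 0.0412 in si-lncMGPF, with all 6 arrays above background, overlapping groups and a log2 change of -0.12 (SE 0.16, limma adjusted p = 0.714). The other Myh6 probe, A_55_P2140453, gave 0.0205 to 0.0313 in si-NC and was not well above background on the 3 si-lncMGPF arrays. Its values there were 0.0198, 0.00813 and 0.0187, where the lowest signals of probes well above background were 0.0176, 0.0313 and 0.0362. The bound that these allow is under 1, so no fold is given, and its measured log2 change of -0.76 had a limma adjusted p of 0.353. All these probes were in the dimmest of 5 bins of tested probes by signal.

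Of the adult fast chains, Myh4 (IIb), the chain of the fastest fibres, gave 0.101, 0.114 and 0.112 in si-NC and 0.0728, 0.0647 and 0.0785 in si-lncMGPF. The groups did not overlap, and the scan 1 array of si-lncMGPF lay between the scan 2 arrays. The means were 0.109 ± 0.00686 and 0.072 ± 0.00694 (SD, n = 3 each), 1.51-fold lower, with a log2 change of -0.60 (SE 0.11, interval -0.85 to -0.34), a limma p of 0.00103 and an adjusted p of 0.145. The change was -0.58 within scan 1 and -0.61 on scan 2. The spots themselves read 111 to 124 on the si-NC arrays and 104, 85.5 and 92 on the si-lncMGPF arrays, while negative control spots read 27.5 to 29 on scan 1 and 45 and 49 on scan 2, and the log2 change was -0.32 from median spot signals with normexp background correction and quantile normalization.

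Myh1 (IIx) gave 0.47, 0.501 and 0.487 in si-NC and 0.456, 0.305 and 0.395 in si-lncMGPF. The groups did not overlap, but the scan 1 array of si-lncMGPF was close to the lowest si-NC array. The log2 change was -0.35 (SE 0.15, interval -0.72 to 0.01, limma adjusted p = 0.326), and -0.09 within scan 1. Myh2 (IIa) was dim, at 0.0292 to 0.0331 in si-NC and 0.0264 to 0.0326 in si-lncMGPF, and its groups overlapped. Its log2 change of -0.07 (SE 0.11, limma adjusted p = 0.761) was 0.07 within scan 1.

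Of the nonmuscle chains, Myh9 (IIA), which carries much of the contractile force of stress fibres, gave 46.7, 55.7 and 50.6 in si-NC and 43.2, 51.9 and 55.7 in si-lncMGPF. Its groups covered nearly the same range, and its log2 change was -0.03 (SE 0.13, interval -0.33 to 0.28, limma adjusted p = 0.933). Myh10 (IIB) gave 4.0, 4.11 and 3.87 in si-NC and 2.98, 3.53 and 3.41 in si-lncMGPF. All 3 si-lncMGPF arrays lay below the si-NC arrays, the scan 1 array most of all, with a log2 change of -0.28 (SE 0.10, interval -0.51 to -0.04), 1.21-fold lower, a limma p of 0.027 and an adjusted p of 0.267. Within scan 1 the change was -0.42.

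**Figure D2:**
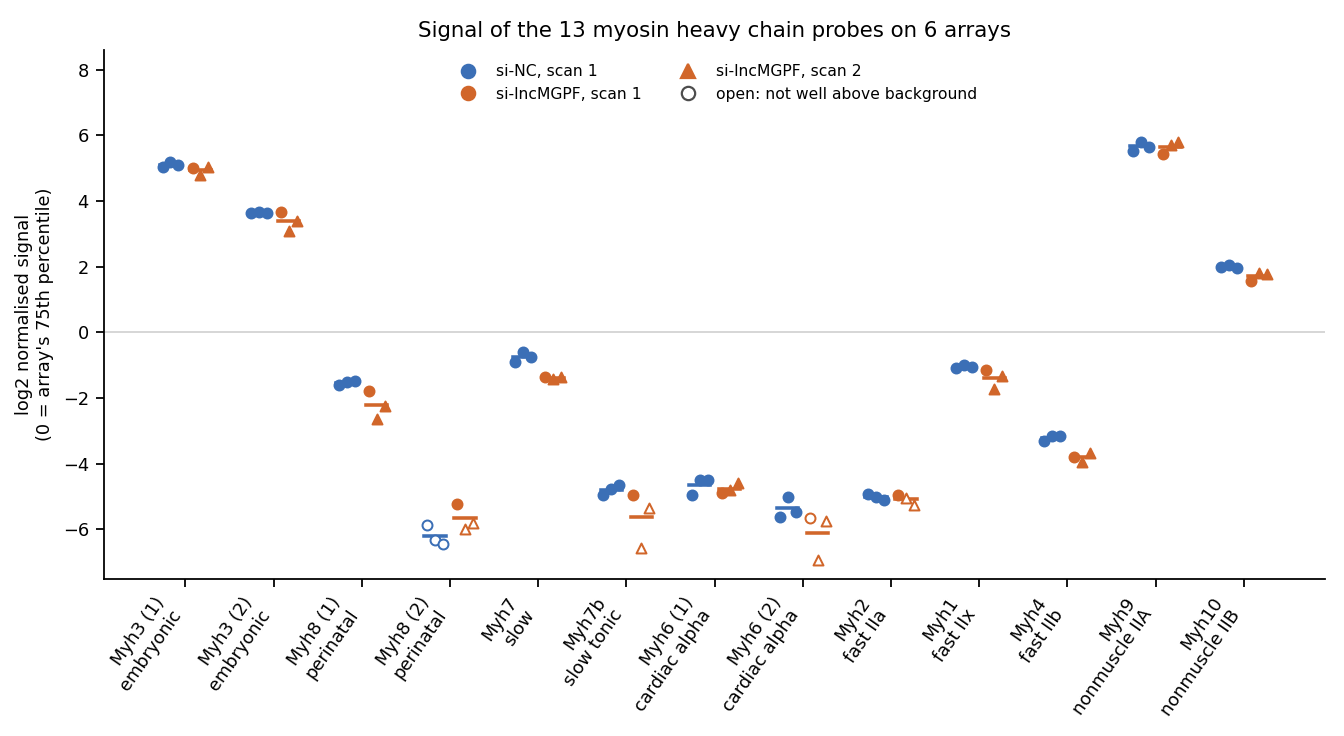
Normalised signal of each of the 13 member probes on a log2 scale, where 0 is the array's 75th percentile, with 1 point per array, lines at the group means, circles for scan 1, triangles for scan 2 and open symbols where the probe was not well above background. Of the 9 probes well above background on all arrays, 6 have all 3 si-lncMGPF points below those of si-NC, where 13.2% of all such probes did. Myh7, Myh4 and Myh10 are among them, and the points of Myh9 overlap. Those of Myh6 probe A_55_P2140453 also lie apart, but it was tested only through si-NC. Heights of different probes are not comparable.

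With limma, 0 of the 12 tested member probes passed an adjusted p of 0.05, where 26 of 24661 probes, or 0.105%, passed, 0.077% of all probes lower and 0.0284% higher. At an unadjusted p below 0.05, 4 member probes were lower (Myh7, Myh4, Myh8 and Myh10) and 0 higher, beside 9.43% of all tested probes lower and 6.4% higher. Of the 9 member probes well above background on all arrays, 6 had groups that did not overlap, all lower in si-lncMGPF, against 13.2% of the probes above background on all arrays. Within scan 1, 7 of these 9 had the si-lncMGPF array below the si-NC range, but so had 45.5% of such probes. All 9 had a negative log2 change, where 44.8% of such probes did, and 4 of the 9 were lower at an unadjusted p below 0.05, where 8.53% were. In RNA from whole cultures, fewer cells that express an isoform and less of its RNA per cell cannot be told apart.

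Over the whole array the log2 change varied with the signal, in opposite ways on the 2 scans. Among all tested probes in 5 bins of equal size by mean signal, the median log2 change within scan 1 was 0.05, 0.05, -0.01, -0.11 and -0.11 from the dimmest to the brightest. On scan 2 it was -0.08, -0.02, 0.00, 0.06 and 0.13. Myh7, Myh8 and Myh1 were in the middle bin, Myh4 in the second, Myh10 in the fourth, and Myh3 and Myh9 in the brightest. The part of these shifts in the members' changes was not tested.

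Without si-lncMGPF 1, the groups and the scans coincide and cannot be told apart, and 4105 probes then passed over the whole array, with 9.6% of all tested probes lower. Without any other single array 0 to 4 probes passed. In that fit 3 members passed: Myh8 at -0.91 (limma adjusted p = 0.0164), Myh7 at -0.65 (limma adjusted p = 0.0192) and Myh4 at -0.61 (limma adjusted p = 0.0259). With the scan as a fixed term in limma, which leaves the 1 scan 1 array of si-lncMGPF to carry the change, 0 members passed and 10 probes, 0.0405%, passed over the array. Myh7 had a smaller range over the 16 settings tried, -0.71 to -0.56, than Myh8, -0.91 to -0.25.

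**Figure D3:**
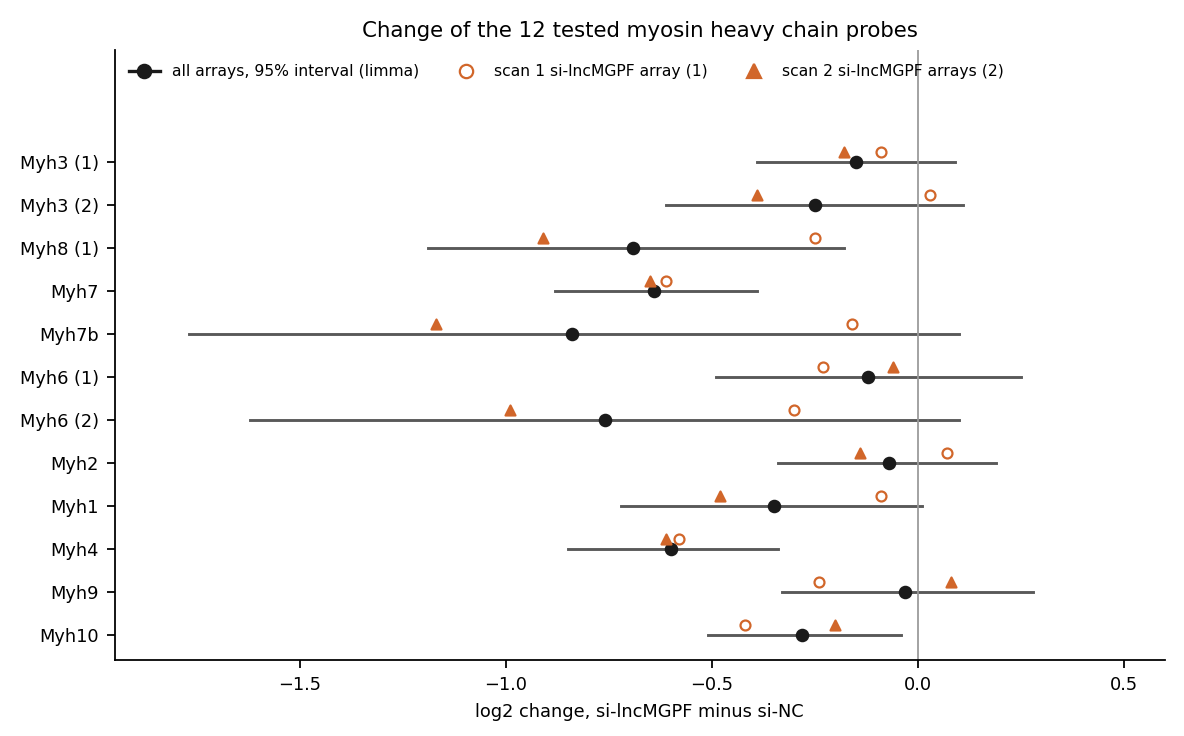
Log2 change of the 12 tested member probes (si-lncMGPF minus si-NC) from all arrays with its 95% limma interval in black, from the 1 scan 1 array of si-lncMGPF as open circles and from the 2 scan 2 arrays as triangles. Scan 1 and scan 2 values coincide for Myh7 (-0.61 and -0.65) and Myh4 (-0.58 and -0.61) and lie far apart for Myh8 (-0.25 and -0.91).

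Differences between a pair of probes on the same array cannot be moved by the scaling of that array, so Myh7 and Myh4 were also read against Myh3 (A_55_P2066440). These pairs were chosen with earlier results known, and Myh1 and Myh2 were not paired with Myh3. Within scan 1 Myh1 had the same log2 change as that Myh3 probe, -0.09, and Myh2 had 0.07. The log2 difference Myh7 minus Myh3 was -5.96, -5.79 and -5.84 in si-NC and -6.38, -6.24 and -6.41 in si-lncMGPF. The groups did not overlap, and their means differed by -0.48 (-5.86 ± 0.08 against -6.35 ± 0.09, SD, n = 3 each). An exact permutation test, two-sided, gave p = 0.1, the smallest that 3 against 3 allows, and 0.15 adjusted over the 3 pairs.

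Myh4 minus Myh3 was -8.36, -8.32 and -8.26 in si-NC and -8.79, -8.76 and -8.71 in si-lncMGPF. Again the groups did not overlap, and their means differed by -0.44 (-8.31 ± 0.05 against -8.76 ± 0.04, SD), with the same exact permutation p of 0.1 and 0.15 adjusted. The slow and the IIb chain read lower against Myh3 probe A_55_P2066440 on every si-lncMGPF array than on any si-NC array. Within scan 1 the shifts were -0.52 and -0.48. Differences from the other Myh3 probe, A_55_P2083406, were not computed. That probe had a log2 change of 0.03 within scan 1 and -0.39 on scan 2, where Myh7 had -0.65 and Myh4 -0.61. From median spot signals with normexp and quantile normalization the shift was -0.32 for Myh7 and -0.09 for Myh4. Myh3 minus Myh9, the embryonic against a nonmuscle chain, was -0.50, -0.62 and -0.56 in si-NC and -0.42, -0.89 and -0.76 in si-lncMGPF. These overlapped, with a shift of -0.13 (exact permutation p = 0.5) that was 0.14 within scan 1.

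**Figure D4:**
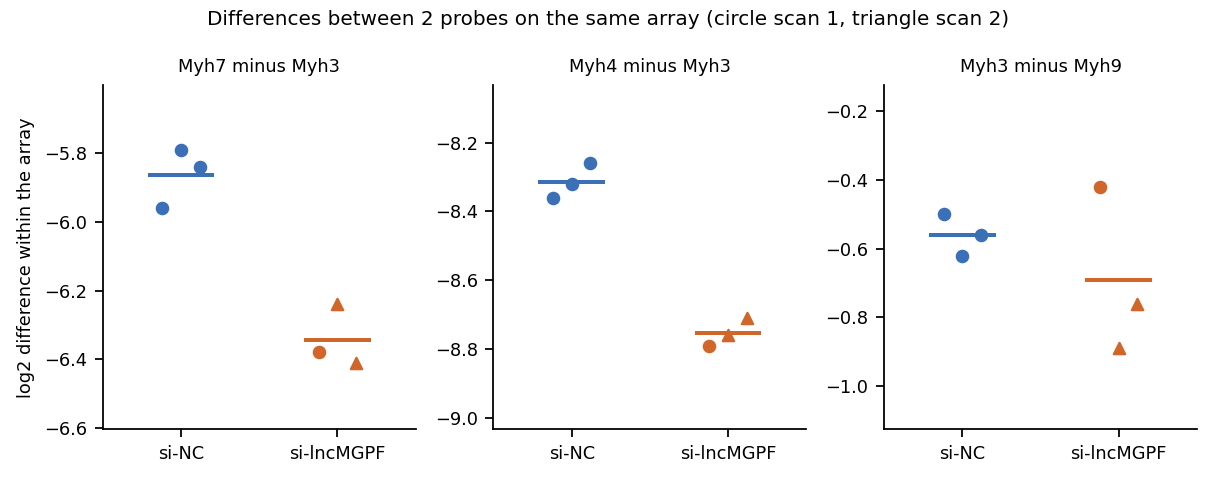
Log2 difference between a pair of probes on the same array, 1 point per array (circles scan 1, triangles scan 2) and lines at the group means; each panel has its own axis. With Myh3 read from probe A_55_P2066440 alone, the si-lncMGPF points of Myh7 minus Myh3 and Myh4 minus Myh3 all lie below those of si-NC. They differ by 0.48 and 0.44 at the means, and the points of Myh3 minus Myh9 overlap.

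The genes that work with the heavy chains were read from a list of 58 by role, of which 57 were on the array and 48 were tested, with 1 probe a gene. With limma, 1 of the 48 passed an adjusted p of 0.05, lower, where 0.147% of all tested genes passed. The median log2 change of the 48 was -0.04, beside 0.02 over all tested genes, and 27 were negative, where 46% of all genes were. At an unadjusted p below 0.05, 8 of the 48 were lower and 2 higher, beside 8.14% and 6.04% of all genes. Of the 48, 3 were not well above background on every array.

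The gene that passed was Myl2, the regulatory light chain that pairs with the slow heavy chain in slow skeletal and ventricular muscle. It fell by 1.51 on the log2 scale (SE 0.12, limma adjusted p = 0.0216), 2.85-fold, with -1.69 within scan 1 and -1.42 on scan 2. Its mean log2 signal was -2.29 in si-NC and -3.8 in si-lncMGPF. The call did not hold with quantile normalization, with no filter on dim probes or with the replicate number as a block. Nor did it hold when any 1 of the arrays other than si-lncMGPF 1 was left out. In each of these settings 0 partner genes passed. Of the other 9 light chains, Myl9, a regulatory chain of smooth and nonmuscle myosin, had a log2 change of -0.57 (limma adjusted p = 0.19). Of the sarcomeric light chains, the embryonic and atrial Myl4 and the fast Myl1 had -0.12 and 0.03 and overlapping groups, with 0.59 from the other probe of Myl1, and both were chosen for mention after their values were seen.

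Among 10 tested thick filament and M-band genes, 8 had a negative log2 change, where 46% of all tested genes did, with a median of -0.16. At an unadjusted p below 0.05, 3 were lower, where 8.14% of all tested genes were. Ttn, the giant spring and ruler of the sarcomere, had -0.38 (SE 0.10, limma adjusted p = 0.214), and its other 3 tested probes also had negative changes. Mybpc2, the fast myosin binding protein C, had -0.56 (SE 0.16, limma adjusted p = 0.229), of a size with Myh4. None of these passed over all probes.

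Among 9 folding, assembly and turnover genes the median was 0.05 and 4 were negative, where 46% of all tested genes were. Unc45b, the muscle chaperone of the myosin motor domain, had -0.26 (SE 0.09, limma adjusted p = 0.264). Trim63, the ubiquitin ligase MuRF1 that marks heavy chains for breakdown, had 0.26 (SE 0.17, limma adjusted p = 0.466), and -0.11 from its other probe. Among 7 kinase and phosphatase genes the median was -0.09 and 4 were negative. At an unadjusted p below 0.05, 1 was lower and 1 higher, beside 8.14% and 6.04% of all tested genes. The skeletal light chain kinase Mylk2 had 0.25 (limma adjusted p = 0.291).

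Of the 14 regulators of isoform choice, 11 were tested, 5 were negative and the median log2 change was 0.06. Mef2c, a MADS-box activator of muscle genes, had 0.78 (SE 0.21, limma adjusted p = 0.223) from a dim probe, with 0.27 within scan 1 and 1.03 on scan 2. Vgll2, a muscle cofactor of the TEAD factors, had -0.35 (SE 0.12, limma adjusted p = 0.268). Sox6 and Prox1, which act against and for the slow programme, were not well above background on any array. Of the other class II heavy chains, the nonmuscle Myh14 had -0.12 (limma adjusted p = 0.548), and -0.3 from its other probe. The smooth muscle Myh11 and the chains Myh13 and Myh15 were not well above background on any array.

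**Figure D5:**
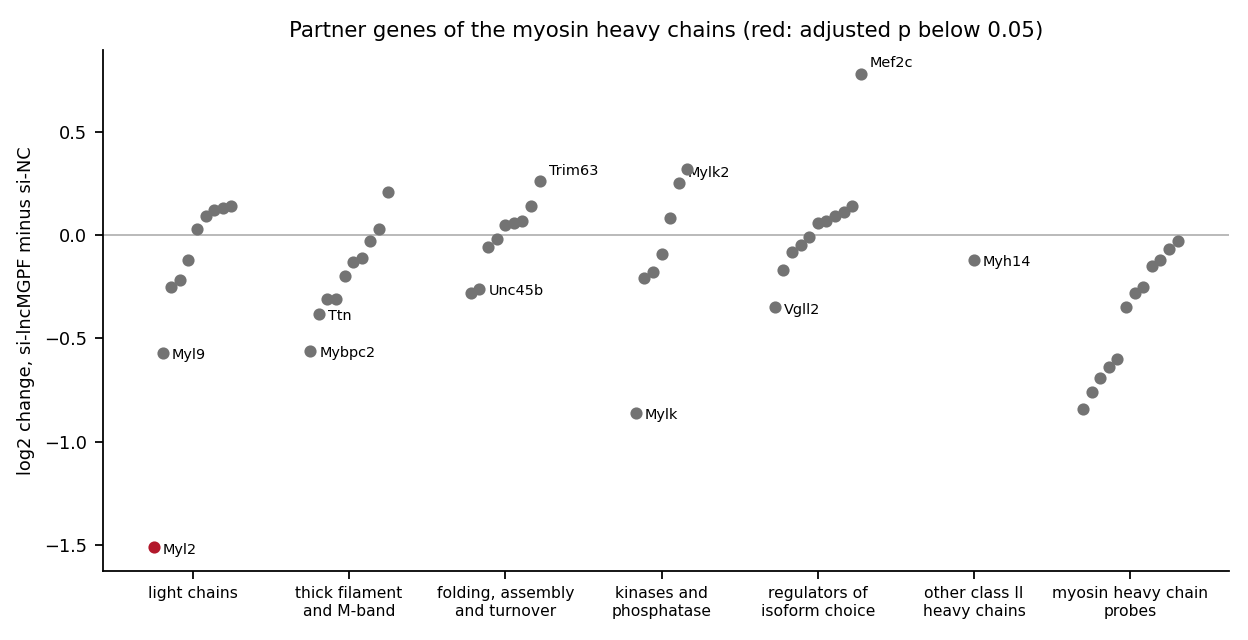
Log2 change (si-lncMGPF minus si-NC) of the 48 tested partner genes by role, 1 point per gene, and of the 12 tested heavy chain probes. Myl2, at -1.51, is the only partner past an adjusted p of 0.05 (red). The 9 heavy chain probes above background on all arrays lie below 0, where 44.8% of all such probes did. The 3 tested through si-NC alone also lie below 0, which that filter favours, and no heavy chain probe passed.

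The skeletal muscle state of the cultures was read from markers. All 12 markers of differentiated skeletal muscle were well above background on all arrays, with a summed normalised signal of 148 to 159 in si-NC and 147 to 165 in si-lncMGPF. The 7 markers of undifferentiated or cycling myoblasts summed to 20.8 to 22.4 and 20.2 to 23. Of 7 cardiomyocyte markers 4 were detected on all arrays and Myl7 and Tbx5 on none (1.93 to 2.11 and 1.69 to 2.22), of 5 smooth muscle markers all but Myh11 (181 to 227 and 169 to 220), of 5 fibroblast markers all (200 to 257 and 203 to 282), and of 6 endothelial or blood markers 2, with Cdh5, Hbb-bs and Lyz2 on none (1.3 to 1.7 and 1.53 to 1.68). The groups overlapped in each of these sums, which are carried by the brightest probes. Single markers had groups that did not overlap, none with a limma adjusted p below 0.05. Over all tested genes, 12.7% were lower without overlap and 9.64% higher. Of the tested markers, these were 1 lower and 1 higher of 12 for skeletal muscle and 1 lower of 7 for myoblasts. They were 2 lower of 4 for smooth muscle and 1 lower and 1 higher of 5 for fibroblasts, with 0 of the cardiomyocyte and endothelial or blood markers. Lower in si-lncMGPF were the muscle caveolin Cav3 at -0.60 (within scan 1 -0.69), the myoblast factor Myf5 at -1.20 (-0.21), the smooth muscle genes Cnn1 at -0.41 (-0.67) and Tagln at -0.34 (-0.62), and the matrix gene Lum at -0.54 (-0.76), as log2 changes. Actc1, an actin of heart and young skeletal muscle, had 0.27 (0.14), and Pdgfra 0.11 (0.05). The median log2 change of the tested smooth muscle markers was -0.22, and -0.45 within scan 1. The part of these markers in the changes of the heavy chains was not tested.

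The genes whose level followed a member most closely over the 6 arrays were taken from 12381 candidate genes by Pearson's r of the log2 signals. For Myh7 they were Banp, Ctrb1 and Cox6a2 (r = 0.9974, 0.9958 and 0.9956), for Myh4 Tgm2, Tcap and Col5a2 (0.9945, 0.9942 and 0.9937) and for Myh3 Slc41a3, Cfhr2 and Hsd17b14 (0.9957, 0.9874 and 0.9858). The 6 points share groups, scans and scaling, and 3.42%, 2.52% and 0.848% of all candidates had r above 0.9 with Myh7, Myh4 and Myh3, so these values describe likeness only.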

How the data were processed

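Total RNA of 6 C2C12 samples was hybridised to 1-colour Agilent arrays. The authors deposited processed intensity values per spot from the scanner software (Feature Extraction 11.0.1.1, per the file headers), already background-subtracted, with flags for saturated, outlying and above-background spots. The deposited value table holds the same intensity values at 44397 of 44397 spots. From these, control and outlier spots were left out, each intensity was divided by its array's 75th percentile over non-control spots, spots of a probe were averaged, and log2 values were compared with limma 3.58.1 (R 4.3.3; lmFit and eBayes, all 6 arrays, no covariate). A probe was tested where it was well above background on all arrays of at least 1 group (24661 of 39429 probes). Benjamini-Hochberg adjustment ran over all tested probes, with a threshold of 0.05. The method was checked on simulated data with independent noise and no difference between scans, so the check does not cover the effect of the scans.

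Probes were named through RefSeq accessions (27234 of 39429). Promoters were those of GRCm38.p6. Runs shared by the members were found on each gene's own strand, and the counts over all windows searched both strands. All members, the 2 partners of each role with the smallest p, and for Myh3, Myh4 and Myh7 the 3 genes with the highest r are named; 1 such partner is not reported here. The members and gene lists were chosen with earlier results of these data known. Other scaling, background (normexp with an offset of 50 on median spot signals, then quantile normalization), filter, scan, replicate block, probe choice and leave-one-out settings were run. No protein or probe sequences were used here. The number of arrays limits the precision.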

Additional observations from a re-analysis of the deposited data

How the results depend on the processing

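The settings changed 1 choice at a time, except that normexp also used median spot signals in place of processed ones and was followed by quantile normalization. With limma, 0 myosin heavy chain probes passed in every setting except without si-lncMGPF 1, where 3 passed (range 0 to 3 over the arrays left out), and 4 were at an unadjusted p below 0.05 with all arrays. Over the whole array 26 probes passed in the comparison reported, 6 with quantile normalization, 0 with no filter on dim probes (5277 at an unadjusted p below 0.05), 10 with the scan as a fixed term, 1 on the scan 1 arrays alone, and 0 to 4105 with an array left out (at most 4 unless that array was si-lncMGPF 1). Of the partner genes 1 passed, and 0 with quantile normalization, with no filter or on the scan 1 arrays alone, 2 with normexp, and 0 to 8 with an array left out. Whether the replicate numbers pair the samples is not known. The deviations of same-numbered arrays from their group means correlated at 0.293, 0.449 and -0.069. The arrays numbered 1 and 2 correlated best with their own number, and those numbered 3 did not. Deviations from a mean of 3 arrays depend on each other, and the si-lncMGPF arrays lay on 2 scans, so this cannot decide the pairing. With the replicate number as a block, 0 probes over the array passed (4430 at an unadjusted p below 0.05), with 0 partner genes and 0 heavy chains, and Myh7 and Myh4 both had an adjusted p of 0.21.

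The sign turned for 3 probes with small or dim values. Myh3 A_55_P2083406 was 0.03 with the scan as a fixed term and 0.03 on the scan 1 arrays alone. Myh2 was 0.07 in both of these, 0.03 with the scan as a random block, and -0.14 to 0.01 with an array left out. Myh9 was -0.10 to 0.08 with an array left out. The shift of Myh7 minus Myh3 was -0.32 with normexp, that of Myh4 minus Myh3 was -0.38 with quantile normalization and -0.09 with normexp, and that of Myh3 minus Myh9 was 0.14 with the scan as a fixed term and on scan 1 alone. The causes were not tested. Over the 16 settings Myh7 ran from -0.71 to -0.56, Myh4 from -0.66 to -0.32 and Myh8 from -0.91 to -0.25. Myh1 ran from -0.48 to -0.09 and Myh10 from -0.42 to -0.19, so all stayed negative. Several settings, such as the filters and the replicate block, cannot move the log2 change, so the constant sign does not measure stability. Myh7b, the Myh6 probes and Myh3 A_55_P2066440 also stayed negative in every setting that tested them. The limma adjusted p ran from 0.0192 to 0.645 for Myh7, 0.0259 to 0.645 for Myh4 and 0.0164 to 0.645 for Myh8. Signals close to background limit Myh2, Myh6, Myh7b and the second Myh8 probe.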
